A study of Mus musculus with 4 samples.

Results

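The genes described here are 10 inhibitory checkpoint and exhaustion genes, namely PDCD1, LAG3, TIGIT, HAVCR2, CD96, CD160, BTLA, CD200, TOX and TOX2, out of 33538 human genes counted. They were chosen by name and read in human T cells of huNSG-SGM3 mice, by T subset and condition. A barcode was taken as a human T cell when more than 50% of its unique molecular identifiers (UMIs) lay on human genes and CD3D, CD3E and CD3G together had at least 1 UMI. After quality control this left 13556 T cells among 17021 human cells. Of the 10 genes, all were found in T cells of each library, although CD160 had only 3 UMIs in SCI cord.

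The study profiled sorted huCD45+ cells by droplet-based scRNAseq in 4 libraries, with 1 library for blood of naïve mice, 1 for blood of sham mice and 1 each for blood and cord of SCI mice. All hosts were NOD.Cg-Prkdcscid mice with the allele IL2rgtm1Wjl, which leave the mouse without lymphocytes of its own, and with the transgene Tg(CMV-IL3,CSF2,KITLG)1Eav/MloySzJ, in which a CMV promoter drives the human cytokines. All had been engrafted with human CD34+ stem cells. Naïve mice had no surgery, sham mice had a T9 laminectomy and SCI mice a T9 spinal cord injury, and the operated mice were sampled at 7 days post-surgery, with a labelled age of 15 weeks in every group. Cells of several animals were pooled into each library, so that the data hold no spread between animals and no test between conditions could be made. SCI hosts were labelled as male and female pooled but naïve and sham hosts as male only, and sex of the host and condition therefore cannot be told apart. Cord tissue was additionally digested with papain and enriched with magnetic beads before the sort, so that tissue and handling cannot be told apart either. All libraries shared a sequencing run and held 34161760, 36007208, 36487994 and 4206461 UMIs over both species in the order naïve blood, sham blood, SCI blood, SCI cord, which is kept for all values below.

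Inhibitory receptors restrain T cells that have met antigen, by recruiting phosphatases, by competing with costimulatory receptors for shared ligands or by binding ligands on neighbouring cells. Activation induces several of them for a time, regulatory and follicular helper T cells hold some of them steadily, and lasting antigen exposure can fix many of them together with the nuclear protein TOX in a state called exhaustion. Detecting a single receptor therefore marks no particular state, which is why subset and co-detection are given beside each level.

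T cells numbered 4618, 3918, 4942 and 78 in the libraries, with 19434521, 23122468, 26074727 and 850924 human UMIs. Median depth per T cell differed, at 3615, 5151.5, 4638 and 8149.5 UMIs. A deeper cell shows a rare transcript more readily, and each cell was therefore also thinned at random to 2000 UMIs before the share of cells with a UMI was taken, which left out 162, 4, 12 and 1 T cells with fewer. For a share of 0, the limit given is that of 3 positive cells among those read. Levels are summed T cell counts scaled to CPM without ribosomal and mitochondrial genes. The median ribosomal share of T cells was 16.7%, 17.6%, 22.8% and 20.7%, and its part in the thinned shares was not tested. Intervals are exact at 95% and cover counting error only. Few barcodes were shared between libraries, with 4 common to T cells of naïve and sham blood, 7 to naïve and SCI blood, 1 to sham and SCI blood and 0 between SCI cord and any blood library.

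Clustering without the 10 genes and without related receptor, regulator and ligand genes gave 7 T subsets, named only as resembling a type, so that names can differ from those of the study. A Treg-like subset (2902 cells, led by FOXP3) made up 23.8%, 27.2%, 14.7% and 16.7% of T cells. A CD8 T-like subset (2731 cells, led by CD8B and GZMK) made up 14.3%, 15.8%, 29.1% and 12.8%, and a cytotoxic T-like subset (892 cells, led by GNLY and GZMH) 8.16%, 4.06%, 7.04% and 10.3%. SCI blood thus held the largest CD8 T-like share and the smallest Treg-like share among the blood libraries, beyond counting intervals. Helper-like cells fell into a subset led by FZD3 (2580 cells, 22.9%, 22.1%, 13% and 23.1%) and another led by CCR10 and CD40LG (2567 cells, 18.1%, 21.2%, 18% and 14.1%). A naïve T-like subset (861 cells, led by NRP2 and AK5) made up 3.59%, 3.19%, 11.4% and 6.41%, highest in SCI blood, and 579 cycling cells made up 4.37%, 4.42%, 4.03% and 6.41%. In SCI cord each subset held at most 18 cells, and cord values are therefore given mainly over all its T cells.

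A further helper-like cluster of 33 cells with a median of 1934 UMIs was not read as a subset. Another 411 T barcodes lay in clusters led by genes of B cells, plasma cells, monocytes or basophils and mast cells, 4.57%, 1.74%, 2.53% and 8.97% of T barcodes. Of the 258 in the B-like cluster, 51.2% carried a doublet mark. In T barcodes, all 6 monocyte markers were detected in each library and summed to 797, 871, 168 and 2428 CPM, with S100A9 highest in blood (448, 466 and 80.5 CPM) and LYZ in cord (1687 CPM). Basophil and mast cell markers (6 of 6 in each) summed to 45.8, 84, 65.5 and 1956 CPM, with CLC at 1419 CPM in cord. B cell markers summed to 365, 192, 305 and 104 CPM (6 of 6 in blood and 2 of 6 in cord, CD79B highest at 138, 83.9, 103 and 76.6 CPM). SCI cord thus carried most myeloid marker RNA among its T barcodes and naïve blood most plasma cell marker RNA. Plasma cell markers (4 of 4 in blood, 1 of 4 in cord) summed to 1202, 25.5, 47 and 13 CPM, with JCHAIN at 1010 CPM in naïve blood. NK markers summed to 56.7, 55, 74.1 and 394 CPM (6, 5, 6 and 4 of 6 detected), with TYROBP, which myeloid cells also hold, at 336 CPM in cord. Erythroid markers reached at most 1.63 CPM, and both platelet markers, PPBP and PF4, were at 0 in every library.

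As a background for shares, 2 gates without any CD3 UMI were read in the same way. The B gate held 1388, 538, 848 and 9 cells with median depths of 3897.5, 5665, 4878 and 15500 UMIs, and the basophil and mast gate 83, 109, 113 and 23 cells at 2929, 4739, 3786 and 9623 UMIs. B cells are known to use BTLA and CD200, and these genes were therefore not read against the B gate alone. Unless named otherwise, the background given is that of the B gate in the 3 blood libraries.

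PDCD1 (ENSG00000188389) encodes PD-1, a receptor that recruits phosphatases to the T cell receptor and CD28. In T cells it stood at 41.5 CPM (38.3 to 45) in naïve blood, 34.6 (31.8 to 37.5) in sham blood, 26.2 (23.9 to 28.7) in SCI blood and 68.4 (49.3 to 92.5) in SCI cord. The blood libraries ran from naïve over sham to SCI without overlapping intervals, and SCI cord lay above all of them. After thinning, 5.34%, 4.47%, 3.43% and 6.49% of T cells held a UMI (unthinned 9.59%, 10.8%, 7.73% and 25.6%), against 0.0737%, 0% and 0.354% of B gate cells. By subset, cytotoxic T-like cells were highest at 95.6 (78.1 to 116), 89.5 (67.8 to 116) and 90.4 (73.9 to 110) CPM, with no difference between blood libraries beyond counting error. FZD3 helper-like cells held 77.3 (67.3 to 88.5), 63.9 (55.6 to 73.2) and 40.9 (32.7 to 50.6) CPM and CCR10 helper-like cells 39 (32.1 to 47), 48 (41.5 to 55.2) and 41.4 (35.2 to 48.4) CPM. Among these subsets, SCI blood was below naïve and sham blood in FZD3 helper-like cells, while the CCR10 subset showed overlapping intervals in all 3 libraries. Thinned shares were 9.76%, 8.1% and 4.83% of FZD3 helper-like and 5.03%, 6.87% and 7.19% of CCR10 helper-like cells (unthinned 15%, 17.7% and 11.4%, and 10.9%, 16.4% and 14.5%). In the FZD3 subset SCI blood was again lowest, but its share overlapped that of sham blood, unlike its CPM. The CCR10 shares overlapped throughout, with SCI blood highest rather than sham blood. Treg-like cells were lower (17, 8.2 and 12.3 CPM), and CD8 T-like cells, at 0.769%, 0.644% and 0.417% of cells, had intervals that overlapped the background. In naïve T-like cells 1 UMI was found in all blood libraries together, with 0 of 165 cells, allowing a share of up to 1.82% in naïve blood.

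LAG3 (ENSG00000089692) encodes a receptor for MHC class II on activated T cells. Its level was 46.6 CPM (43.1 to 50.2) in naïve blood, 46.4 (43.3 to 49.8) in sham blood, 22.4 (20.3 to 24.7) in SCI blood and 47.3 (31.7 to 67.9) in SCI cord. Naïve and sham blood did not differ beyond counting error, SCI blood was lower than both, and the interval of SCI cord overlapped those of naïve and sham blood but not that of SCI blood. Of T cells, 4.87%, 4.83%, 2.62% and 5.19% held a UMI after thinning (unthinned 8.36%, 10.9%, 4.96% and 12.8%; background 0.147%, 0.186% and 0%). Cytotoxic T-like cells stood well above the other subsets, at 220 (193 to 250), 224 (189 to 264) and 164 (142 to 189) CPM and with 26.9%, 27% and 18.9% of cells positive (unthinned 40.3%, 49.7% and 31.9%). Here the CPM of SCI blood was below that of naïve blood, while the shares of all 3 overlapped. In Treg-like cells LAG3 was at 63.2 (54.2 to 73.2), 43.2 (36.7 to 50.5) and 10.2 (6.52 to 15.1) CPM, so that the blood libraries were ordered naïve, sham, SCI with no overlap. Their thinned shares were 5.11% (3.84% to 6.64%), 4.03% (2.93% to 5.4%) and 1.52% (0.761% to 2.7%), with overlap between naïve and sham blood only. Helper-like cells behaved otherwise, since sham blood was highest in the FZD3 subset (14.2, 42.4 and 7.22 CPM) and in the CCR10 subset (20.7, 42.2 and 23.1 CPM). The interval of sham blood, 35.7 to 50.1 CPM in FZD3 and 36.1 to 48.9 CPM in CCR10 helper-like cells, overlapped neither naïve nor SCI blood in either subset. Cycling cells held 91.5, 73.4 and 38.4 CPM, and CD8 T-like cells (0.769%, 0.483% and 0.139%) were near background.

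TIGIT (ENSG00000181847) encodes a receptor that competes with CD226 for PVR and related nectins. T cells held 176 CPM (169 to 183) in naïve blood, 161 (155 to 167) in sham blood, 84.6 (80.4 to 89) in SCI blood and 199 (165 to 237) in SCI cord. The blood libraries were ordered naïve, sham, SCI without overlap, with SCI blood far below the others, and SCI cord overlapped naïve and sham blood. Thinned shares were 19% (17.9% to 20.2%), 17.6% (16.4% to 18.8%), 8.9% (8.12% to 9.73%) and 16.9% (9.31% to 27.1%), and unthinned shares 27.8%, 30.1%, 15.5% and 38.5%, against a background of 0.0737%, 0.558% and 0.472%. The gene was frequent in Treg-like cells and in cytotoxic T-like cells, which exceeded them in naïve blood. Of Treg-like cells, 36.3% (33.4% to 39.4%), 40.8% (37.8% to 43.8%) and 28.3% (25.1% to 31.7%) were positive after thinning (unthinned 48.8%, 58.5% and 45.5%), at 372 (350 to 395), 418 (398 to 440) and 278 (258 to 301) CPM. Within this subset the CPM of sham blood was highest and that of SCI blood lowest, without overlap. The cytotoxic T-like subset showed the widest range in absolute CPM, from 559 (515 to 606) CPM in naïve blood over 286 (246 to 330) in sham to 198 (173 to 226) in SCI blood. In shares these were 50.4%, 30.2% and 24.1% (unthinned 63.7%, 45.3% and 35.6%), with sham and SCI blood overlapping and naïve blood above them. FZD3 helper-like cells held 138 (124 to 152), 119 (108 to 132) and 128 (113 to 144) CPM with overlapping intervals, whereas CCR10 helper-like cells held 58 (49.5 to 67.5), 53.1 (46.3 to 60.6) and 36.6 (30.8 to 43.3) CPM, with SCI blood below the others. CD8 T-like cells held little, and least in SCI blood, at 28.8 (21.1 to 38.5), 18.3 (13.1 to 25) and 4.04 (2.36 to 6.48) CPM.

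CD96 (ENSG00000153283) encodes a further nectin receptor, which binds PVR alongside TIGIT and CD226. Its level was 79.4 CPM (74.9 to 84.2) in naïve blood, 85 (80.7 to 89.5) in sham blood, 98.8 (94.3 to 104) in SCI blood and 119 (93.3 to 150) in SCI cord, so that SCI blood and SCI cord, which overlapped, were above naïve and sham blood, which overlapped as well. Thinned shares were 10.7%, 10.9%, 12.6% and 13% (unthinned 20.1%, 27.5%, 27.5% and 52.6%), against a background of 1.18%, 1.12% and 1.65%. The subsets were ordered unlike those of TIGIT. CD8 T-like cells were high, at 154 (135 to 174), 157 (141 to 175) and 136 (125 to 148) CPM, and Treg-like cells lowest, at 36.5, 38.3 and 39.4 CPM, with 17.8%, 19% and 16.5% against 5.3%, 4.69% and 4.56% of cells positive. Within each of these subsets the blood libraries overlapped. Cytotoxic T-like cells held 120, 126 and 132 CPM, CCR10 helper-like cells 90.6, 98.9 and 114 CPM, FZD3 helper-like cells 79.2, 78.5 and 88.1 CPM and naïve T-like cells 94.9, 89.5 and 84.8 CPM. Of these subsets, CCR10 helper-like cells had naïve blood below SCI blood without overlap (79.9 to 102 against 103 to 125 CPM), and the others overlapped throughout. Naïve T-like cells were positive for CD96 in 12.1%, 8.8% and 9.56% after thinning.

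HAVCR2 (ENSG00000135077) encodes TIM-3, a receptor of galectin-9 and other ligands that myeloid cells hold as well. T cells had 9.13 CPM (7.64 to 10.8) in naïve blood, 7.59 (6.34 to 9.01) in sham blood, 4.81 (3.85 to 5.93) in SCI blood and 48.9 (33 to 69.8) in SCI cord. Blood levels were low throughout, with naïve and sham blood overlapping and SCI blood below both, and SCI cord stood clear above all blood libraries. Of T cells, 1.12%, 0.664%, 0.629% and 7.79% were positive after thinning (unthinned 2.04%, 2.19%, 1.44% and 19.2%). The basophil and mast gate held HAVCR2 in 12.7%, 10.2%, 6.19% and 13.6% of thinned cells and the B gate in 0.442%, 0%, 0.472% and 11.1%. Myeloid cells use TIM-3 themselves, so that the former gate is no empty background. With 22 and 9 thinned cells in the cord gates, the cord T cell share could not be set against a background. In blood the cytotoxic T-like subset was the highest, at 60.4 (46.6 to 76.9), 62.8 (44.9 to 85.5) and 21.7 (14.1 to 32.1) CPM and 6.8%, 5.66% and 2.62% of cells (unthinned 10.9%, 12.6% and 5.17%), with shares above those of the B gate and SCI blood below naïve and sham blood in CPM. Treg-like cells held little, at 5.68, 5.2 and 5.51 CPM, as did CD8 T-like cells, at 5.64, 6.41 and 4.28 CPM. At a finer clustering, cycling cells held 15.4, 13.7 and 5.68 CPM in a cluster led by PCLAF. Those in a cluster led by TOP2A held 12.5, 15.1 and 5.81 CPM. FZD3 helper-like cells had 1 UMI in naïve blood and none in sham (0 of 864 cells, allowing a share of up to 0.347%) or SCI blood (0 of 642 cells, allowing a share of up to 0.467%).

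BTLA (ENSG00000186265) and CD160 (ENSG00000117281) both encode receptors of HVEM, the product of TNFRSF14. BTLA was level across the libraries, at 28.2 CPM (25.6 to 31.1) in naïve blood, 26.9 (24.5 to 29.5) in sham blood, 25 (22.8 to 27.5) in SCI blood and 32.6 (19.9 to 50.3) in SCI cord, with all intervals overlapping. Thinned shares were 3.52%, 3.65%, 3.06% and 5.19% (unthinned 7.93%, 10.5%, 8.17% and 16.7%), whereas the B gate, whose cells use the receptor, held it in 8.63%, 8.92% and 8.85% and the basophil and mast gate in 0 of 71, 0 of 108 and 0 of 113 cells, which allows shares of up to 4.23%, 2.78% and 2.65%. Helper-like cells carried the gene, at 46, 43.9 and 44.6 CPM in the CCR10 and 39.8, 36.4 and 29.9 CPM in the FZD3 subset. These levels lay above those of Treg-like (12.4, 13.4 and 14 CPM) and CD8 T-like cells (11.9, 11.5 and 10.7 CPM) in every blood library without overlap. CD160 was the scarcest of the genes in UMIs, with 76, 62, 99 and 3 UMIs in all, or 5.26 CPM (4.14 to 6.58) in naïve blood, 3.62 (2.78 to 4.64) in sham blood, 5.47 (4.45 to 6.66) in SCI blood and 4.89 (1.01 to 14.3) in SCI cord. Over all T cells its thinned shares of 0.696%, 0.562% and 0.669% (unthinned 1.49%, 1.53% and 1.7%) overlapped the background of 0.295%, 0.558% and 0.354% in each blood library, and SCI cord had 0 of 77 cells, allowing a share of up to 3.9%. Cytotoxic T-like cells were highest in naïve and SCI blood, and held 24.1 (15.8 to 35.4), 7.85 (2.55 to 18.3) and 32.2 (22.6 to 44.3) CPM and 3.4%, 0.629% and 4.36% of cells (unthinned 5.04%, 1.89% and 6.61%). Sham blood was lower there than SCI blood in CPM, with 5 UMIs against 37, while naïve and SCI blood overlapped. In sham blood FZD3 helper-like cells had a larger thinned share, with 9 of 794 cells without PDCD1 and 0 of 70 with it.

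CD200 (ENSG00000091972) is a ligand rather than a receptor, which quiets myeloid cells that carry CD200R1 and which also marks helper cells of follicles. Its level was 11.6 CPM (9.93 to 13.5) in naïve blood, 8.64 (7.31 to 10.2) in sham blood, 7.02 (5.85 to 8.35) in SCI blood and 11.4 (4.59 to 23.5) in SCI cord. Naïve blood was above SCI blood without overlap, and sham blood and SCI cord overlapped both. Thinned shares were 1.39%, 1.05%, 0.872% and 3.9% (unthinned 2.86%, 2.94%, 2.02% and 5.13%), which in blood were no higher than in the B gate (1.99%, 1.49% and 2.24%), whose cells use CD200 themselves. The basophil and mast gate had it in 0%, 0.926% and 0%. FZD3 helper-like cells held 17.5 (12.9 to 23.2), 25.1 (20 to 31.2) and 26 (19.5 to 33.9) CPM, with overlap between libraries and the highest level of any subset in sham and SCI blood, and 2.73%, 2.78% and 3.12% of them were positive (unthinned 3.88%, 6.83% and 6.23%). CCR10 helper-like cells held 15.1 (10.9 to 20.3), 7.51 (5.11 to 10.7) and 6.63 (4.29 to 9.79) CPM, where naïve blood lay above the rest, and Treg-like (2.84, 2.73 and 2.12 CPM) and CD8 T-like cells (2.51, 1.37 and 2.14 CPM) were low. Cycling cells of naïve blood reached 23.2 CPM (16.1 to 32.4), against 6.35 in sham and 9.96 in SCI blood.

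TOX (ENSG00000198846) and TOX2 (ENSG00000124191) encode related HMG-box proteins, of which TOX sustains the exhausted state and TOX2 is known from follicular helper cells. TOX was at 56.7 CPM (52.9 to 60.8) in naïve blood, 55.5 (52 to 59.1) in sham blood, 37.7 (34.9 to 40.6) in SCI blood and 83.1 (61.9 to 109) in SCI cord. SCI blood was below naïve and sham blood, which overlapped, and SCI cord was above all blood libraries. Thinned, 7.99%, 7.03%, 4.67% and 6.49% of T cells were positive (unthinned 14.2%, 17.9%, 11.3% and 32.1%), against 0%, 0% and 0.236% in the B gate. At this equal depth the cord share lay between those of sham and SCI blood and overlapped every blood library, unlike its CPM. TOX was present in each subset, helper-like and Treg-like cells included. Cytotoxic T-like cells held 109 (89.9 to 130), 69.1 (50.2 to 92.7) and 64.3 (50.5 to 80.7) CPM, FZD3 helper-like cells 74.8 (64.9 to 85.7), 77 (67.8 to 87) and 53.5 (44 to 64.4) CPM, Treg-like cells 68.8 (59.5 to 79.2), 58.8 (51.2 to 67.2) and 63.1 (53.4 to 74.1) CPM and CCR10 helper-like cells 53.4 (45.2 to 62.6), 61.1 (53.8 to 69.1) and 46.2 (39.6 to 53.6) CPM. In Treg-like cells the libraries overlapped, in FZD3 helper-like cells SCI blood was below the others, in CCR10 helper-like cells sham blood was above SCI blood, and in cytotoxic T-like cells naïve blood was above SCI blood. CD8 T-like cells, at 17.6, 14.2 and 10.7 CPM, and naïve T-like cells, at 19, 23.4 and 10 CPM, were low in each library. TOX2 was scarcer in UMIs, with 14 CPM (12.2 to 16.1) in naïve blood, 16.4 (14.5 to 18.4) in sham blood, 9.89 (8.5 to 11.5) in SCI blood and 21.2 (11.3 to 36.2) in SCI cord, and SCI blood was again below naïve and sham blood without overlap, while SCI cord overlapped all of them. Its thinned shares were 1.86%, 1.51%, 0.933% and 5.19% (unthinned 3.57%, 5.28%, 2.91% and 10.3%; background 0.811%, 0% and 0.118%). Cycling cells were highest for TOX2 (33.5, 43.5 and 22.3 CPM, 7%, 5.2% and 3.02% of thinned cells), and CCR10 (15.1, 21.1 and 17.8 CPM) and FZD3 helper-like cells (19, 15.1 and 16.9 CPM) overlapped between libraries. Cytotoxic T-like cells held 19.5 (12.1 to 29.8), 12.6 (5.42 to 24.7) and 1.74 (0.211 to 6.28) CPM, with SCI blood below naïve blood. CD8 T-like cells had no TOX2 UMI in naïve blood (0 of 650 cells, allowing a share of up to 0.462%) or sham blood (0 of 621 cells, allowing a share of up to 0.483%).

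Gates on UMIs of FOXP3, CD8A, CD8B and CD4, which need no clustering, were read beside the subsets. The FOXP3 gate resembled the Treg-like subset for TIGIT, whereas the CD8 gate differed from the CD8 T-like subset. In cells with a FOXP3 UMI (445, 523 and 262 in blood), TIGIT was found in 36.3%, 40.3% and 29.5% after thinning and LAG3 in 7.36%, 5.16% and 1.92%. CD8 gate cells (881, 838 and 1659) held TIGIT in 14.4%, 8.35% and 4.65%, LAG3 in 8.36%, 6.44% and 4.28% and PDCD1 in 3.72%, 2.74% and 2.29%. SCI blood was thus lowest for TIGIT and LAG3 in both gates, although it overlapped naïve blood for TIGIT in the FOXP3 gate and sham blood for LAG3 in each. The CD8 T-like subset held far less PDCD1, LAG3 and TIGIT than the CD8 gate. All 6 CD8 markers were also detected in the cytotoxic T-like subset, at a median of 4.36-fold over other T barcodes. The CD8 T-like subset is therefore not all CD8 T cells. CD4 gate cells (1060, 1127 and 1215) held TIGIT in 15.5%, 14.3% and 8.66%, and PDCD1 in 5.71%, 5.86% and 5.69%, while its level there was 50.4, 43.9 and 35 CPM.

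**Figure D1:**
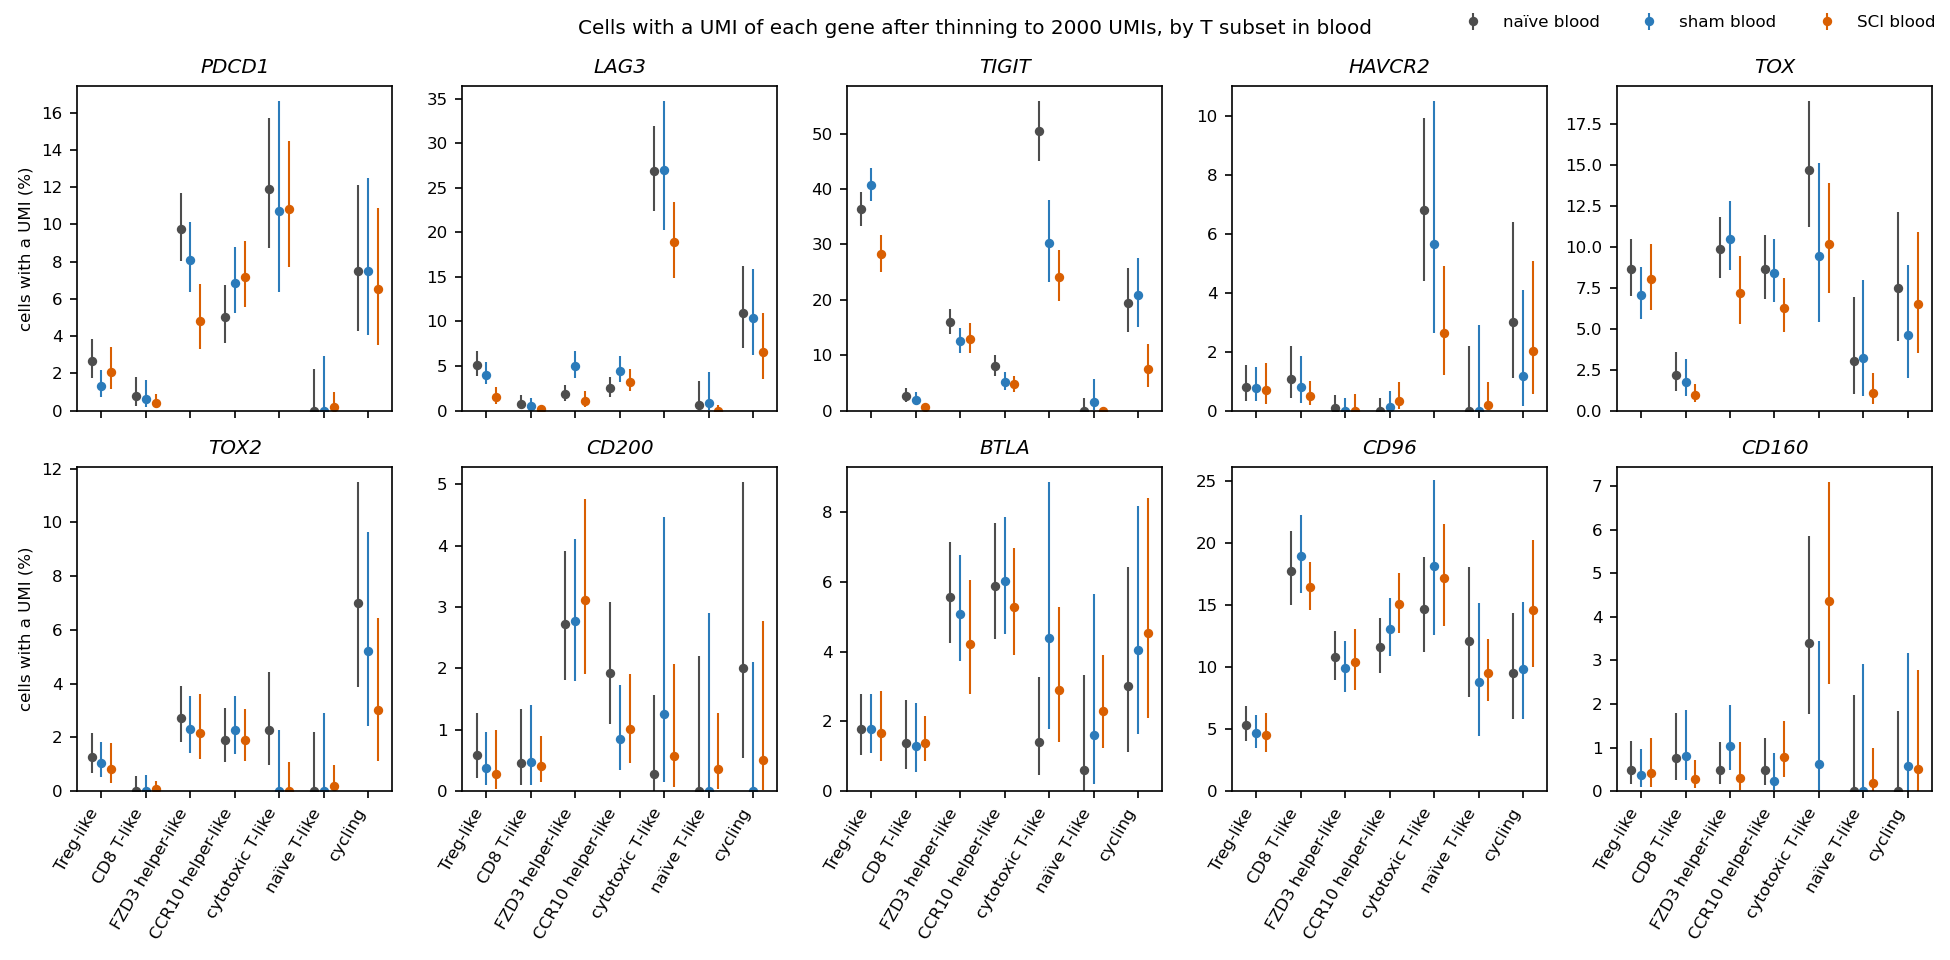
Share of cells with a UMI of each gene (y axis, %, after thinning each cell to 2000 UMIs) in each T subset (x axis) of naïve, sham and SCI blood; points are shares and bars exact 95% binomial intervals. TIGIT is highest in Treg-like (36.3%, 40.8% and 28.3%) and cytotoxic T-like cells (50.4%, 30.2% and 24.1%), LAG3 in cytotoxic T-like (26.9%, 27% and 18.9%) and CD200 in FZD3 helper-like cells (2.73%, 2.78% and 3.12%).

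Sham blood was compared with naïve blood to show T cells after surgery without cord injury. The checkpoint genes stayed within 1.5-fold over the whole T cell pool, and some, among them PDCD1, LAG3, TIGIT and CD200, differed further within subsets. Levels of the 10 genes were close, with log2 ratios between −0.54 for CD160 and 0.22 for TOX2. PDCD1 stood at −0.26 (−0.43 to −0.10), TIGIT at −0.12 (−0.20 to −0.04), CD200 at −0.43 (−0.76 to −0.10) and CD160 at −0.54 (−1.05 to −0.04), with intervals below 0. Intervals reached 0 for LAG3 (0.00, −0.15 to 0.15), HAVCR2 (−0.27, −0.63 to 0.09), TOX (−0.03, −0.17 to 0.10), TOX2 (0.22, −0.04 to 0.49), BTLA (−0.07, −0.26 to 0.13) and CD96 (0.10, −0.01 to 0.21). None of the 10 was higher and none lower by at least 1.5-fold, whereas 4.44% of 13650 genes with at least 20 counts were higher and 5.51% lower. The median over the 10 was −0.10, against −0.01 over all these genes. For LAG3, near equality over all T cells hid opposite differences within subsets. It was higher after sham surgery in FZD3 helper-like (1.56, 1.06 to 2.13) and CCR10 helper-like cells (1.02), and lower in Treg-like cells (−0.55, −0.87 to −0.23). TIGIT was at −0.97 (−1.22 to −0.73) in cytotoxic T-like cells, a subset that made up 8.16% of T cells in naïve and 4.06% in sham blood, and at 0.17 (0.05 to 0.28) in Treg-like cells. The make-up of the cytotoxic T-like subset differed as well, with a finer cluster led by CCL4 and EOMES (288 cells in naïve and 65 in sham blood, TIGIT 639 and 495 CPM) and another led by GNLY and ZNF683 (93 and 107 cells, 296 and 155 CPM). PDCD1 was lower in Treg-like cells (−1.05, −1.76 to −0.37), and CD200 in cycling (−1.84, −2.88 to −0.94) and CCR10 helper-like cells, where it had 7.51 against 15.1 CPM. In cytotoxic T-like cells the CPM of CD160 and TOX, given above, was also lower in sham blood, with overlapping intervals. T cells of sham blood were deeper by 0.48 on the log2 scale of mean depth, and scaling each library to its own depth put TOX2 at 0.71.

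SCI blood was compared with naïve blood to show the circulating T cells after cord injury. These T cells held less PDCD1, LAG3, TIGIT and HAVCR2 and less CD200 and TOX, whereas the nectin receptor CD96 and the HVEM receptors kept their levels within 1.5-fold. In this comparison, 6 of the 10 genes were lower by at least 1.5-fold and 0 higher, against 7.06% lower and 6.47% higher of 13717 genes. The lower genes were the receptors TIGIT (−1.05, −1.15 to −0.96), LAG3 (−1.05, −1.23 to −0.87), HAVCR2 (−0.92, −1.33 to −0.52) and PDCD1 (−0.66, −0.84 to −0.49), the ligand CD200 (−0.73, −1.07 to −0.39) and TOX (−0.59, −0.74 to −0.44). TOX2 stood at −0.51 (−0.80 to −0.21), BTLA at −0.17 (−0.37 to 0.02) and CD160 at 0.05 (−0.39 to 0.51), and CD96 alone had an interval above 0, at 0.31 (0.21 to 0.42). The median over the 10 was −0.63, against 0.00 over all genes.

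Subset make-up moved along with these ratios, since CD8 T-like and naïve T-like cells, which hold little PDCD1, LAG3 and TIGIT, made up 29.1% and 11.4% of T cells in SCI blood but 14.3% and 3.59% in naïve blood. With every subset given a common weight in both libraries, the ratios shrank to −0.68 for TIGIT, −0.42 for PDCD1, −0.38 for TOX and −0.34 for CD200, while LAG3 stayed at −0.88 and HAVCR2 at −0.94. TIGIT, LAG3 and HAVCR2 thus remained past 1.5-fold at common weights, and CD96 came to 0.08. Within Treg-like cells LAG3 was at −2.61 (−3.31 to −2.02), with 24 UMIs in SCI against 178 in naïve blood. TIGIT was lower in cytotoxic T-like (−1.49, −1.72 to −1.27), CD8 T-like (−2.81) and CCR10 helper-like cells (−0.66), less so in Treg-like cells (−0.42, −0.56 to −0.28) and within counting error of 0 in FZD3 helper-like cells (−0.11, −0.34 to 0.12). PDCD1 was at −0.91 (−1.30 to −0.55) in FZD3 helper-like but 0.08 (−0.27 to 0.45) in CCR10 helper-like and −0.08 (−0.49 to 0.33) in cytotoxic T-like cells. HAVCR2 in cytotoxic T-like cells was at −1.46 (−2.20 to −0.79). In a finer clustering HAVCR2 stood at 68.6, 76.4 and 6.09 CPM in the CCL4 and EOMES cluster of these cells and at 32.9, 49.9 and 29.6 CPM in the GNLY and ZNF683 cluster. TIGIT stood at 639, 495 and 380 CPM in the former and at 296, 155 and 117 CPM in the latter. These clusters held, in this order, 288 and 93 cells of naïve and 93 and 257 cells of SCI blood. Whether these subset differences differ from each other was not tested. Monocyte marker RNA in T barcodes was also lower in SCI blood, and without barcodes holding a marker UMI of other cells TIGIT was at −1.21, LAG3 at −1.07 and HAVCR2 at −0.93.

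SCI blood was compared with sham blood to set cord injury beside surgery alone, and this comparison shares a library with each of the previous ones. LAG3 and TIGIT were again lower after cord injury over all T cells. LAG3 (−1.05, −1.23 to −0.87), TIGIT (−0.93, −1.02 to −0.84), TOX2 (−0.73, −1.01 to −0.45) and HAVCR2 (−0.66, −1.07 to −0.26) were lower by at least 1.5-fold. These are 4 of the 10 genes, against 5.91% of 13836 genes. CD160 (0.59, 0.12 to 1.08) alone was higher, 1 of 10 against 6.46% of genes, which is near that background. This call was lost in several other settings, among them removal of all marked doublets, thinning and common subset weights (0.50). TOX, at −0.56 (−0.70 to −0.41), and PDCD1, at −0.40 (−0.58 to −0.22), fell short of the fold, and CD200 was at −0.30 (−0.65 to 0.05), BTLA at −0.10 (−0.30 to 0.09) and CD96 at 0.22 (0.12 to 0.32). The median was −0.48, against 0.01 over all genes. HAVCR2 fell short of 1.5-fold in 5 other settings. It was near 0 when thinned to 2000 UMIs (−0.05). In the others it fell short by less, as without barcodes with a marker UMI of other cells (−0.50). At common subset weights LAG3 was at −1.07 and HAVCR2 at −0.86, whereas TIGIT moved to −0.53 and TOX2 to −0.41, short of 1.5-fold. LAG3 differed in each helper-like subset, at −2.51 (−3.43 to −1.78) in FZD3 and −0.87 (−1.26 to −0.49) in CCR10 helper-like cells, and in Treg-like cells at −2.06 (−2.77 to −1.46). Since helper-like LAG3 was highest in sham blood, SCI against naïve blood was at only 0.15 (−0.34 to 0.66) in CCR10 helper-like cells and −0.95 (−1.94 to −0.09) in FZD3 helper-like cells. TIGIT was at −0.59 (−0.72 to −0.45) in Treg-like and −0.53 (−0.82 to −0.24) in cytotoxic T-like cells, and HAVCR2 at −1.52 (−2.31 to −0.77) in the latter.

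SCI cord was compared with SCI blood to show T cells at the lesion beside those in circulation, with only 78 cord T cells. Cord T cells held more PDCD1, TIGIT, TOX and TOX2 by CPM, beside more myeloid marker RNA in the same barcodes. All of the genes but CD160 (4.89 against 5.47 CPM) were at a higher CPM in cord, and 7 were higher by at least 1.5-fold and 0 lower, against 22.5% higher and 15.8% lower of 12714 genes. HAVCR2 led with 3.36 (2.70 to 3.96), from 30 cord UMIs, of which T cells and other cells cannot be told apart as the source. PDCD1 (1.40, 0.89 to 1.84), TIGIT (1.24), TOX (1.15, 0.70 to 1.55), TOX2 (1.15, 0.16 to 1.91) and LAG3 (1.10, 0.48 to 1.62) had intervals above 0, while CD200 (0.79, −0.64 to 1.79) did not. BTLA (0.41, −0.34 to 1.02), CD96 (0.28, −0.09 to 0.61) and CD160 (0.05 (−2.46 to 1.43), from 3 cord UMIs with 0.5 added) were not past the fold. The median was 1.12, against 0.05 over all genes.

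Myeloid markers were far higher in cord T barcodes, as given above, and 57.7% of them held a marker UMI of other cells, against 36.1% in SCI blood. Without such barcodes HAVCR2 was at 2.87, PDCD1 at 1.30, TIGIT at 1.18 and TOX at 1.13, TOX2 rose to 2.04, and LAG3 came to 0.30. Without the clusters led by genes of other cells, HAVCR2 was at 3.16 and LAG3 at 0.78. LAG3 thus fell short of 1.5-fold in the stricter of these settings, in which BTLA, at 1.32, passed it. CD200 came to 0.37 without cycling cells. Cord T cells were also deeper. After thinning, PDCD1 was found in 6.49% (2.14% to 14.5%) of cord and 3.43% (2.94% to 3.97%) of SCI blood T cells, with overlap. TIGIT, at 9.31% to 27.1% against 8.12% to 9.73%, overlapped narrowly, and of the 10 genes only HAVCR2 and TOX2 had shares that did not overlap.

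**Figure D2:**
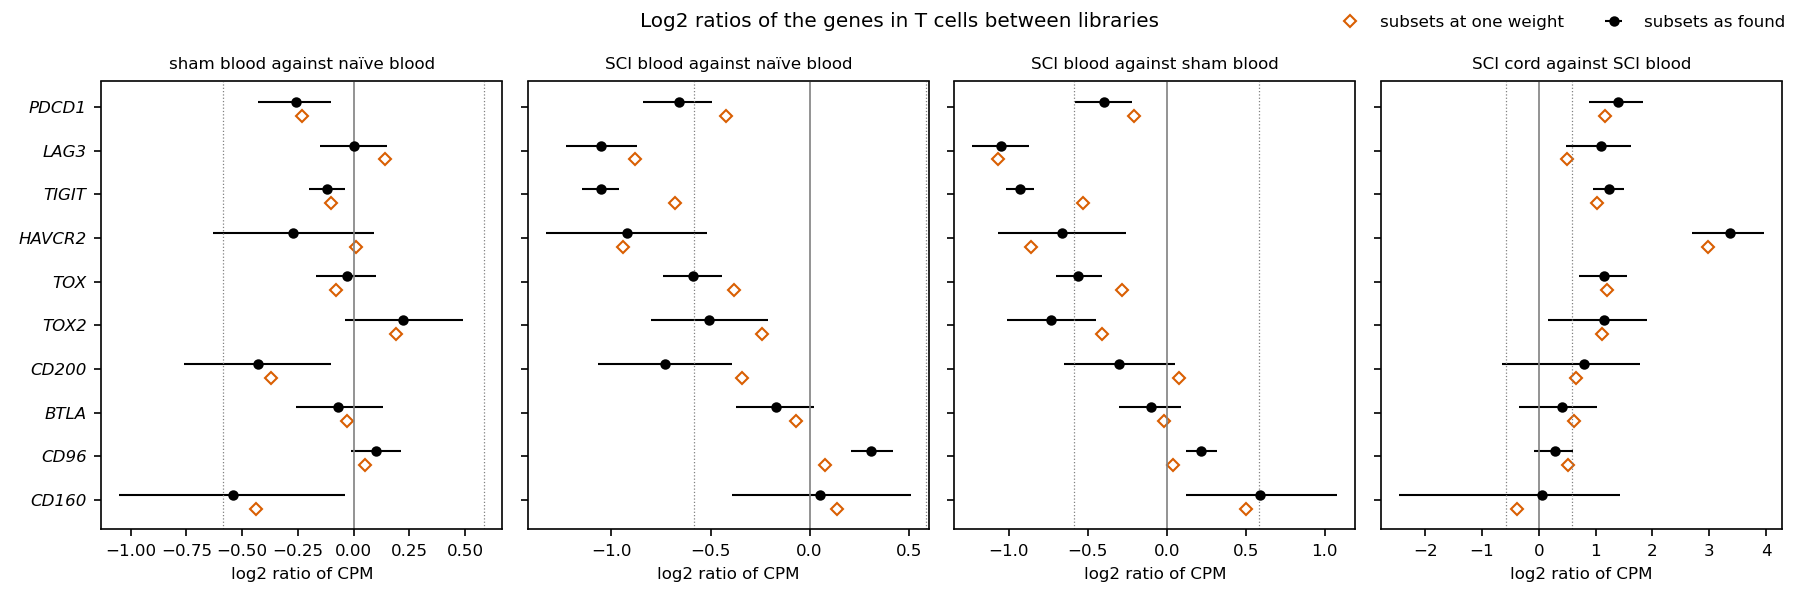
Log2 ratio of CPM (x axis, its range differing between panels) of each gene (y axis) in T cells, for 4 pairs of libraries; black points show subsets as found with exact 95% intervals, orange diamonds each subset at a common weight in both libraries, and dotted lines 1.5-fold; diamonds of SCI cord rest on subsets of 5 to 18 cells. SCI blood lies below naïve blood for LAG3 (−1.05) and TIGIT (−1.05), and SCI cord above SCI blood for HAVCR2 (3.36).

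Among 8 other inhibitory receptors, SCI against naïve blood showed 3 higher and 1 lower, with a median log2 ratio of 0.38 (all genes 6.47% higher and 7.06% lower), so that this list did not share the direction of the 10 genes. CD244, a receptor of CD48, was at 1.80, and CTLA4, which competes with CD28 and is named here after its values were seen, at −1.16 (36.8, 44.9, 16.5 and 132 CPM). The abundant receptors KLRB1 (534, 491, 402 and 543 CPM) and VSIR (145, 133, 151 and 171 CPM) stood at −0.41 and 0.05. Of 7 costimulatory receptors, 0 were higher and 3 lower, among them TNFRSF4 (−0.82), TNFRSF18 (−1.04) and TNFRSF9 (−1.73), whereas CD28, CD27 and CD226 were at −0.37, −0.16 and 0.17. Treg-like cells, whose share was 23.8% in naïve and 14.7% in SCI blood, held most TNFRSF4 (527, 542 and 404 CPM) and TNFRSF18 (513, 496 and 329 CPM). CD226, the activating rival of TIGIT and CD96, was level over all T cells (149, 152, 168 and 134 CPM). In cytotoxic T-like cells of blood it stood at 65.9, 138 and 158 CPM. Regulators linked to exhaustion or follicular help, with counts for 14 of 16, had 1 higher and 6 lower (median −0.53), with LAYN at −2.10. TCF7, which keeps T cells able to renew, was at 0.22 (492, 512, 574 and 254 CPM).

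Against sham blood, SCI blood had 3 higher and 1 lower of the 8 inhibitory receptors, 0 and 3 of the 7 costimulatory receptors and 1 and 5 of 14 regulators (all genes 6.46% and 5.91%), with LAYN at −2.44 and CTLA4 at −1.45. Sham against naïve blood showed few differences, with, as higher and lower in the same order of lists, 1 and 0, 1 and 0, and 0 and 2 (all genes 4.44% and 5.51%), including IRF4 at −1.27, EOMES at −0.90 and CD244 at 0.80. IRF4, also at −1.66 in SCI against naïve blood, is a gene of plasma cells as well, whose marker RNA in T barcodes was highest in naïve blood. It stood at 3.55, 3.28 and 3.39 CPM in Treg-like, 13, 12.6 and 6.95 CPM in cytotoxic T-like and 13, 14.5 and 7.59 CPM in cycling cells, and the part of plasma cell RNA was not tested. SCI cord against SCI blood had 3 and 0, 4 and 0, and 10 and 2 of 15, where 22.5% of all genes were higher and 15.8% lower, so that the inhibitory receptors were not far from that background. The greatest cord differences were in the NR4A genes, which respond to T cell receptor signals and to tissue handling, with NR4A1 at 4.78, NR4A2 at 5.48 and NR4A3 at 7.00, and in LAYN at 4.55. TCF7 was lower in cord, at −1.17. Lesion and digestion cannot be told apart here.

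Co-detection was read in thinned cells, so that depth did not join the genes. UMIs of at least 2 of the 10 genes were found in 11.1% (10.2% to 12%), 9.3% (8.41% to 10.3%), 6.04% (5.4% to 6.75%) and 19.5% (11.3% to 30.1%) of T cells (unthinned 24.8%, 31%, 19.5% and 55.1%). SCI blood was below every other library, naïve and sham blood overlapped narrowly, and SCI cord was highest with an interval that overlapped naïve blood. At least 3 genes were found in 2.54%, 1.71%, 1.12% and 3.9%, and no UMI of the 10 in 57.7%, 59.2%, 69% and 55.8%. The cytotoxic T-like subset stood apart, with at least 2 genes in 40.2% (35.1% to 45.5%), 28.3% (21.5% to 36%) and 23.8% (19.4% to 28.7%) and at least 3 in 13.9%, 9.43% and 5.52%. SCI blood was below naïve blood in this subset, and sham blood overlapped both. FZD3 helper-like cells had at least 2 in 12.1%, 11.8% and 9.5%, Treg-like cells in 10.9%, 9.94% and 6.77% and CCR10 helper-like cells in 7.43%, 8.31% and 7.75%, so that only Treg-like cells among these showed SCI blood below naïve blood without overlap. In CD8 T-like cells the shares were 2%, 1.77% and 0.974%, and of naïve T-like cells 0 of 165, 1 of 125 and 0 of 565 had 2 genes.

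**Figure D3:**
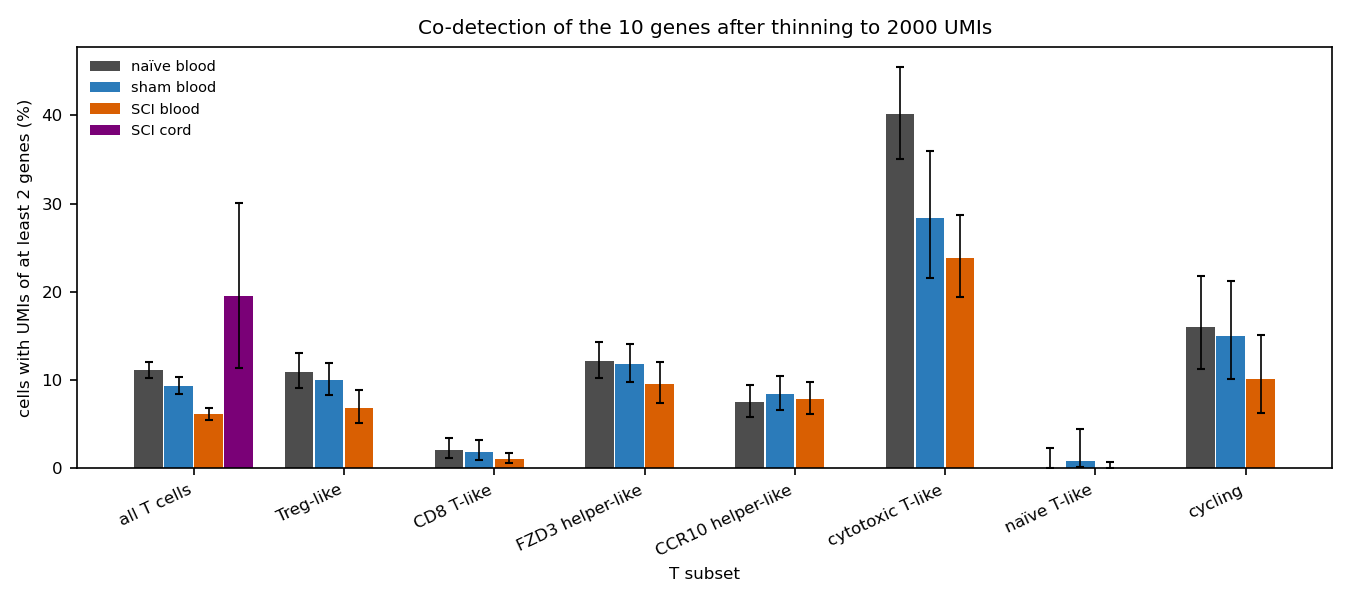
Share of T cells with UMIs of at least 2 of the 10 genes (y axis, %, after thinning to 2000 UMIs) over all T cells and by T subset (x axis); bars are the 4 libraries, SCI cord over all T cells only, and whiskers exact 95% binomial intervals. Cytotoxic T-like cells are highest at 40.2%, 28.3% and 23.8% in naïve, sham and SCI blood, and over all T cells SCI blood is lowest at 6.04%.

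Several pairs of these genes met in the same cell more often than the product of their shares gives. Cells with both LAG3 and TIGIT numbered 100 against 41.3 in naïve blood, 57 against 33.3 in sham blood and 27 against 11.5 in SCI blood. For PDCD1 and LAG3 the counts were 24 against 11.6 in naïve blood, 19 against 8.45 in sham blood and 23 against 4.42 in SCI blood, and for TIGIT and TOX 111 against 67.7 in naïve blood, 79 against 48.4 in sham blood and 49 against 20.5 in SCI blood. The ratios of found to calculated were thus 2.42, 1.71 and 2.35 for LAG3 with TIGIT, 2.07, 2.25 and 5.2 for PDCD1 with LAG3 (in naïve blood 0.94 when thinned to 1000 UMIs) and 1.64, 1.63 and 2.39 for TIGIT with TOX. PDCD1 and CD200 met in 11 against 3.31 in naïve blood, 9 against 1.83 in sham blood and 3 against 1.47 in SCI blood, small counts throughout. TIGIT and CD96, whose order over the subsets differed, met less often than calculated, in 79 against 90.8 in naïve blood, 53 against 74.8 in sham blood and 34 against 55.4 in SCI blood. In SCI cord 3 of 77 cells held both PDCD1 and TIGIT, against 0.844 calculated, and 3 held both TIGIT and HAVCR2, against 1.01.

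Within subsets the excess was absent for some pairs and kept for others. In cytotoxic T-like cells LAG3 and TIGIT were together in 56 cells against 47.9 in naïve, 13 against 13 in sham and 15 against 15.7 in SCI blood. PDCD1 and LAG3 gave 10 against 11.3, 7 against 4.6 and 14 against 6.99, above the product in SCI blood. FZD3 helper-like cells kept an excess, since PDCD1 and TIGIT met in 34 cells against 16, 21 against 8.75 and 10 against 4.01. TIGIT and TOX met there in 26 against 16.2, 22 against 11.4 and 11 against 5.95, and in cytotoxic T-like cells in 34 against 26.2, 6 against 4.53 and 9 against 8.44. In FZD3 helper-like cells TIGIT and CD200 met in 11 against 4.48, 8 against 3 and 7 against 2.59. CCR10 helper-like cells showed no such meeting of PDCD1 and TIGIT in naïve or SCI blood (1 against 3.37 and 2 against 3.02) and 5 against 2.95 in sham blood. The shortfall of TIGIT with CD96 over all T cells was not shared by every subset. This pair met in 21 against 19.6, 23 against 20.4 and 8 against 9.34 Treg-like cells. In FZD3 helper-like cells the counts were 19 against 17.8, 4 against 10.8 and 10 against 8.66. Cytotoxic T-like cells gave 25 against 26.2, 13 against 8.75 and 10 against 14.2. Treg-like cells of naïve and sham blood had LAG3 with TIGIT in 29 against 18.9 and 24 against 17.5. Those of SCI blood had 3 against 3.11, from only 11 cells with LAG3, too few to tell an excess from none.

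Ligands of these receptors were read in the same libraries. In T cells, HMGB1, which TIM-3 can bind, was abundant (1137, 1257, 1183 and 1426 CPM), and TNFRSF14, the HVEM that BTLA and CD160 bind, was level (154, 156, 155 and 125 CPM). LGALS9, which encodes galectin-9, was at 89.5, 99.1, 68.6 and 81.5 CPM, lowest in SCI blood. The PD-1 ligands CD274 and PDCD1LG2 reached at most 1.93 and 3.26 CPM, and FGL1, a ligand of LAG-3, had 0 counts in T cells of any library. CD86, a ligand of CD28 and CTLA-4, was at 46.6, 31.9 and 28 CPM in the B gate of the blood libraries. CD200R1, the receptor of CD200, stood at 178, 134, 115 and 113 CPM in the basophil and mast gate, against 34.3, 35.7, 40.8 and 50.5 CPM in T cells and 7.74, 5.67 and 11.9 CPM in the B gate of blood. Of the 13 ligand genes, 9 had counts enough for SCI against naïve blood, with 0 higher and 4 lower, 0 and 4 of 10 against sham blood, 1 and 1 of 11 for sham against naïve blood and 3 and 1 of 9 for SCI cord against SCI blood. Over all genes, shares higher and lower were 6.47% and 7.06%, 6.46% and 5.91%, 4.44% and 5.51%, and 22.5% and 15.8%. CD80 and CD86, among the lower ligands, reached at most 7.66 and 2.79 CPM in any T subset of blood, and the part of RNA from other cells in T barcodes was not tested.

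For each of the 10, genes among those with the most similar level over 21 groups of blood library and T subset were found by Pearson's r of log2 CPM, among 5309 genes, as a description with no test, since groups of 1 library share its cells' depth and handling. PDCD1 was nearest to SLF1 (0.96), PRR5L (0.94) and CD99 (0.93), and LAG3 to IFI27L2 (0.92) and TGFBR3 (0.89). TIGIT was nearest to GALM (0.92), TBK1 (0.92) and PTPRJ (0.91), HAVCR2 to DTHD1 (0.95), ASCL2 (0.93) and CMC1 (0.93) and CD160 to CCL4L2 (0.91), ADGRG1 (0.90) and XCL2 (0.90). The neighbours of HAVCR2 and CD160 included genes of cytotoxic cells, such as CMC1, CCL4L2 and XCL2. CD96 was nearest to THEMIS (0.96), ARRB2 (0.96) and TGFBR2 (0.90), BTLA to M6PR (0.90), RBPJ (0.90) and ANXA6 (0.88) and CD200 to IGFBP4 (0.86), AGFG1 (0.85) and FZD3 (0.84), of which FZD3 also led the helper-like subset with most CD200. TOX was nearest to ATP2B4 (0.94), LIMS1 (0.93) and SRGN (0.93) and TOX2 to CALM2 (0.92) and SQLE (0.92).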

How the data were processed

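Counts were UMIs per barcode and gene on a combined human and mouse genome, made by the authors with CellRanger 3.1.0 (10x 3' v3 chemistry, NextSeq-500) and deposited as filtered matrices; nothing else had been done to them. Of 64591 genes, 33538 were human. Barcodes were 8124, 6962, 7513 and 231 in naïve blood, sham blood, SCI blood and SCI cord, of which 6713, 4972, 6283 and 138 had more than 50% human UMIs. Barcodes more than 3 median absolute deviations below the median in UMIs or genes, or above it in mitochondrial or ribosomal share, were removed (318, 237, 252 and 20), as were barcodes with more than 3000 genes among those of highest Scrublet score, marked at 0.8% per 1000 barcodes (71, 90, 97 and 0). This left 6324, 4645, 5934 and 118 human cells. Marked doublets with fewer genes stayed and made up 7.04%, 4.47%, 5.54% and 0% of T cells. A single CD3 UMI was held by 3.01%, 1.45%, 2.31% and 7.69% of T cells.

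T cells were clustered together by Leiden at a resolution of 0.8 on log-normalised counts, without the 10 genes and the related receptor, regulator and ligand genes; 0.4, 1.5 and gates on UMIs were tried beside it. Subsets were named by leading genes. CPM left out ribosomal and mitochondrial genes. A log2 ratio had 0.5 counts added to each side and an exact conditional binomial interval, and was called from 1.5-fold with at least 20 counts over both libraries. Shares used cells thinned to 2000 UMIs. At common weights, each T subset had its mean share of UMIs over both libraries. The 10 genes and the lists beside them were chosen with earlier results of these data known. Of the related genes, up to 10 were named by highest CPM and up to 4 by log2 ratio past 1.5-fold in a comparison; any other is said to be named after its values were seen. The scripts were tested on simulated counts with known differences. Cells were handled in scanpy 1.11.5 (anndata 0.12.19, igraph 0.11.9, scikit-learn 1.9.0) under Python 3.11.15, tables in pandas 2.3.3 and intervals in scipy 1.17.1 with numpy 2.4.6; edgeR 4.0.16 in R 4.3.3 gave scaling factors, and matplotlib 3.10.9 drew the figures.

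With 1 library of pooled animals per condition, differences between animals, libraries and conditions cannot be told apart, and no test between conditions was made. SCI cord gave only 78 T cells in subsets of 5 to 18 cells, so that its values at common weights are uncertain. A share of 0 limits cells with a UMI, not cells that express the gene. Transcripts were read and not protein. RNA of other cells in T barcodes was described and not removed.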

Additional observations from a re-analysis of the deposited data

How the results depend on the processing

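Between sham and naïve blood, scaling to each library's own mean depth made 1 gene higher by 1.5-fold, instead of 0. There 1 gene was lower with at least 2 CD3 UMIs, without barcodes holding a marker UMI of other cells, with each cell thinned to 2000 UMIs, and, in settings chosen after seeing the data, 1 without clusters led by genes of other cells and 1 without cycling cells. In all but the thinned setting this was CD160, at −0.59, −0.67, −0.62 and −0.60.

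Between SCI and naïve blood, 6 genes were lower, but 3 at each library's own mean depth, 3 with each T subset at a common weight and 2 at a fold of 2. They were 5 under the rule alone, without barcodes holding a marker UMI of other cells, with TMM factors and as a mean over cells, 7 with CPM over all human genes, and 6 in the other settings, with 5 of the same genes when thinned. Between SCI and sham blood, the 1 higher gene, CD160, became 0 under the rule alone, 0 with all marked doublets removed, 0 with CPM over all human genes, 0 at own mean depth, 0 as a mean over cells of each cell's scaled counts, 0 with cells thinned to 2000 UMIs, 0 at common weights and 0 at a fold of 2. The 4 lower genes became 2 at common weights and 1 at a fold of 2, 3 when thinned and without clusters led by genes of other cells, 5 with CPM over all human genes and 6 at own mean depth. HAVCR2 was short of 1.5-fold when thinned (−0.05), without barcodes holding a marker UMI (−0.50), as a mean over cells (−0.53), without clusters led by genes of other cells (−0.57) and without cycling cells (−0.47). Between SCI cord and SCI blood, 1 gene, CD160, was lower without barcodes holding a marker UMI of other cells. The 7 higher genes became 10 at own mean depth, 8 as a mean over cells, when thinned and without clusters led by genes of other cells, and 6 without cycling cells and at a fold of 2. Without barcodes holding a marker UMI they stayed 7, with BTLA (1.32) past 1.5-fold and LAG3 (0.30) not. At common weights the same held (0.62 and 0.50), from cord subsets of 5 to 18 cells. The cause of these differences was not tested. Scaling to own mean depth shifts every gene alike, by 0.48, 0.23, −0.26 and 1.10 log2 in the order of comparisons given here. The last shift is past 1.5-fold by itself. Counts at own mean depth therefore do not set the 10 genes apart from all other genes.

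The 18 ratios past 1.5-fold kept their direction in all 13 settings (234 of 234). Over these settings SCI against naïve blood ran from −1.21 to −0.68 for TIGIT and from −1.15 to −0.83 for LAG3, past 1.5-fold throughout. SCI cord against SCI blood ran from 2.87 to 4.47 for HAVCR2 and from 0.30 to 2.20 for LAG3.

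Shares depend on depth by construction. TIGIT was found in 23.7%, 22% and 15.7% of Treg-like cells of naïve, sham and SCI blood when thinned to 1000 UMIs and in 48.8%, 58.5% and 45.5% with no thinning. At least 2 genes were found in 3.92%, 3.73%, 1.94% and 6.41% of T cells at 1000 UMIs and in 24.8%, 31%, 19.5% and 55.1% with no thinning. In each, SCI blood stayed lowest. For PDCD1 and LAG3 in naïve blood, cells with both stood at 0.94 times the product of their shares at 1000 UMIs, against 2.07 at 2000.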

Other observations

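At a finer clustering of the T cells, again without the 10 genes, 523 cells led by FZD3, AHI1 and GNG4 formed a cluster of their own (195, 175 and 145 in naïve, sham and SCI blood and 8 in SCI cord). After thinning, PDCD1 was found in 20.6%, 21.1% and 11.7% of its cells in these blood libraries, TIGIT in 36.5%, 28.6% and 32.4%, CD200 in 5.82%, 9.71% and 8.97% and TOX2 in 8.47%, 7.43% and 8.28%. LAG3 was found in 2.12%, 9.71% and 0.69%.

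Cytotoxic T-like cells divided into a cluster led by CCL4 and EOMES (288, 65 and 93 cells) and another led by GNLY, ZNF683 and HOPX (93, 107 and 257 cells), so that their proportions differed between the libraries. TIGIT was found in 54.7%, 46.2% and 39.8% of the former and 33.7%, 18.7% and 17.4% of the latter, and PDCD1 in 12%, 12.3% and 10.8% against 12%, 9.35% and 11.1%.

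Among FZD3 helper-like cells, 100, 70 and 31 thinned cells of naïve, sham and SCI blood held a PDCD1 UMI. Of these, 34%, 30% and 32.3% held TIGIT, against 14.1%, 11% and 11.9% of cells without PDCD1, and 26%, 15.7% and 29% held MAF, against 9.08%, 14.7% and 10.3%. CXCR5, a receptor of follicular helper cells, was found in 1, 0 and 0 of them and in 1.08%, 1.01% and 1.15% of cells without PDCD1, counts too small to tell these apart.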
